A study of Mus musculus with 6 samples.

Results

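The genes described here encode core proteins of the spliceosome, the machine that removes introns from new transcripts. They were chosen by name: every gene whose symbol begins with Snrp, Sf3a, Sf3b or Prpf, except Snrpn, which belongs to an imprinted locus. The name rule found 33 genes among the 23281 of the deposited table, and 33 of the 33 had a mean of at least 100 reads over the 6 libraries. Splicing proteins with the prefix Snrnp, such as the U1 protein Snrnp70, fall outside that rule and are given as a comparison list.

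The cells were mouse embryonic stem cells, female and hybrid (129S x Cast), pre-plated to discard feeder cells. In all of them the promoter of the endogenous Xist gene on the 129S allele was replaced with a TetOn promoter, and a Bgl stem-loop sat at the end of Xist. Every sample name also carries Halo beside Bgl, which the labels do not explain. Cells took 1 µg/ml doxycycline for 17.5 to 20 h, so that Xist was induced in every group, and then 500 µM 4-thiouridine (4sU) with doxycycline for 4 h. The groups differed in the time spent afterwards in medium with 50 mM uridine and doxycycline, which was 30, 60, 90, 120 or 150 min, while the 0 min group had no such step. RNA was taken from nuclei and read by SLAM-seq, in which 4sU in RNA is alkylated and then read as a T-to-C (T>C) change. Each time had 1 library, so there were no replicates. The table names its columns with a number that lacks a unit, or with none, and the times were read from the part of the sample titles that differs.

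Libraries held 18558073 to 28535162 reads. All 8 embryonic stem cell markers checked were read in every library, with a summed level of 2626 to 3022 CPM (reads scaled to library size). Of 8 feeder fibroblast markers 7 were read in every library, with Lum at 0 in at least 1, and their summed level was 268 to 394 CPM; their part in the results below was not tested. The members had 215 to 31228 reads per library, from Prpf40b at the low end to Prpf8 at the high end.

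A small nuclear ribonucleoprotein (snRNP) is a small nuclear RNA wrapped by a ring of Sm proteins, with further proteins particular to each snRNP. U1 marks the start of an intron, U2 binds its branch site with the help of the SF3A and SF3B complexes, and U4/U6 and U5 join as a preassembled tri-snRNP. Many proteins named Prpf, after yeast pre-mRNA processing mutants, build the tri-snRNP, remodel it or act at later steps, while others such as Prpf39 associate with U1. Splicing is needed in all cell types.

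What SLAM-seq can see of such an mRNA is set by its T bases. The opening coding bases of 4 members are shown because these members stand at either end of the results, with the steepest slopes of the labelled share in Prpf38b and Prpf39 and the least steep in Prpf8 and Snrpf. Each line gives coding bases 1 to 90 from GENCODE M21 (mm10), read along the gene's own strand, with each T, the only base that can hold 4sU, in capitals:
Prpf38b: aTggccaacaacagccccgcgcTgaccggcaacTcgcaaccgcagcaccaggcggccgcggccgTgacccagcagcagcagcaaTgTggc
Prpf39: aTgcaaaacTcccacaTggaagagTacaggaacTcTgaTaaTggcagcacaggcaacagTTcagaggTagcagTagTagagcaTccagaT
Prpf8: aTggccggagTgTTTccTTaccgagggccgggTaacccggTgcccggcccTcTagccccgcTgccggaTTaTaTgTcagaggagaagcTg
Snrpf: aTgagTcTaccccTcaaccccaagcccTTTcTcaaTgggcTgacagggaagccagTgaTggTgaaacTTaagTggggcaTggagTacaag
The stretch of Prpf38b holds 6 T bases and that of Prpf39 holds 15, against 18 each for Prpf8 and Snrpf. Over whole transcripts that order did not hold, with a T content of 23.5% in Prpf38b, 29.7% in Prpf39, 23.2% in Prpf8 and 29.3% in Snrpf. The T content of the members' whole transcripts ran from 17.7% to 30.4%. Its median was 25.9% in the 12 members that lost label and 25.0% in the 21 that were not called. T content and the labelled share at 0 min had a Spearman rho of 0.05 across the 33 members. That is a description across genes measured in the same library.

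By the labelled share, some spliceosome genes lost label fast and others were not called as losing it. The authors' labelled share, the fraction of a gene's reads taken to be newly made, fell in 12 of 33 members and rose in 0, by a limma fit of ln share on washout time with Benjamini-Hochberg adjusted p under 0.05. Over all 11462 genes tested the same call was made for 52.3%, and 1.19% rose. The members' median slope was -0.14 per h, against -0.25 per h over all genes tested. Without the 150 min library 5 members fell, namely Prpf38b, Prpf39, Prpf4, Prpf4b and Prpf18, and 31.3% of all genes tested did. With 1 library per time, these p-values measure scatter around a line, pooled in part over all genes tested, and not a spread between cultures. Since only nuclear RNA was read, decay and export out of the nucleus cannot be told apart.

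**Figure D1:**
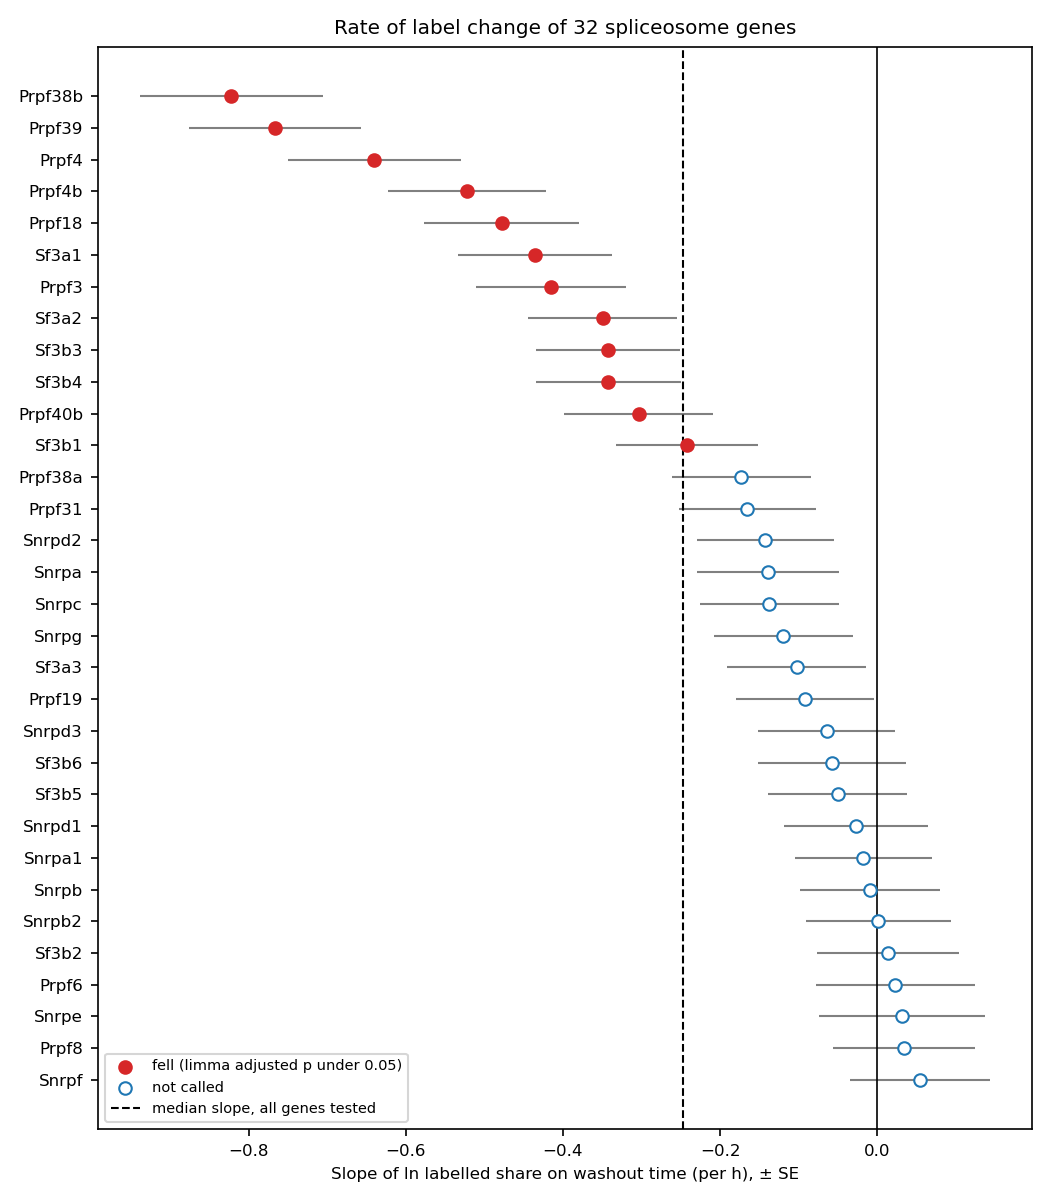
The slope of ln labelled share on washout time (per h) is drawn for each of 32 genes as a point with its limma standard error, filled where the share fell. The 12 filled points run from -0.82 per h (Prpf38b) to -0.24 per h (Sf3b1), and the dashed line is the median of all genes tested, -0.25 per h.

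By role, the calls came from the Prpf and Sf3 genes. Of 13 Prpf genes 7 fell, and of 9 Sf3 genes 5 fell, both near the 52.3% of all genes tested that fell. Of the 7 Sm ring genes and the 4 genes of U1- and U2-specific proteins 0 fell, and their slopes lay between -0.14 and 0.05 per h. At an unadjusted p under 0.05, 12 of the 33 members fell and 0 rose, while 58.1% of all genes tested passed that threshold in either direction.

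**Figure D2:**
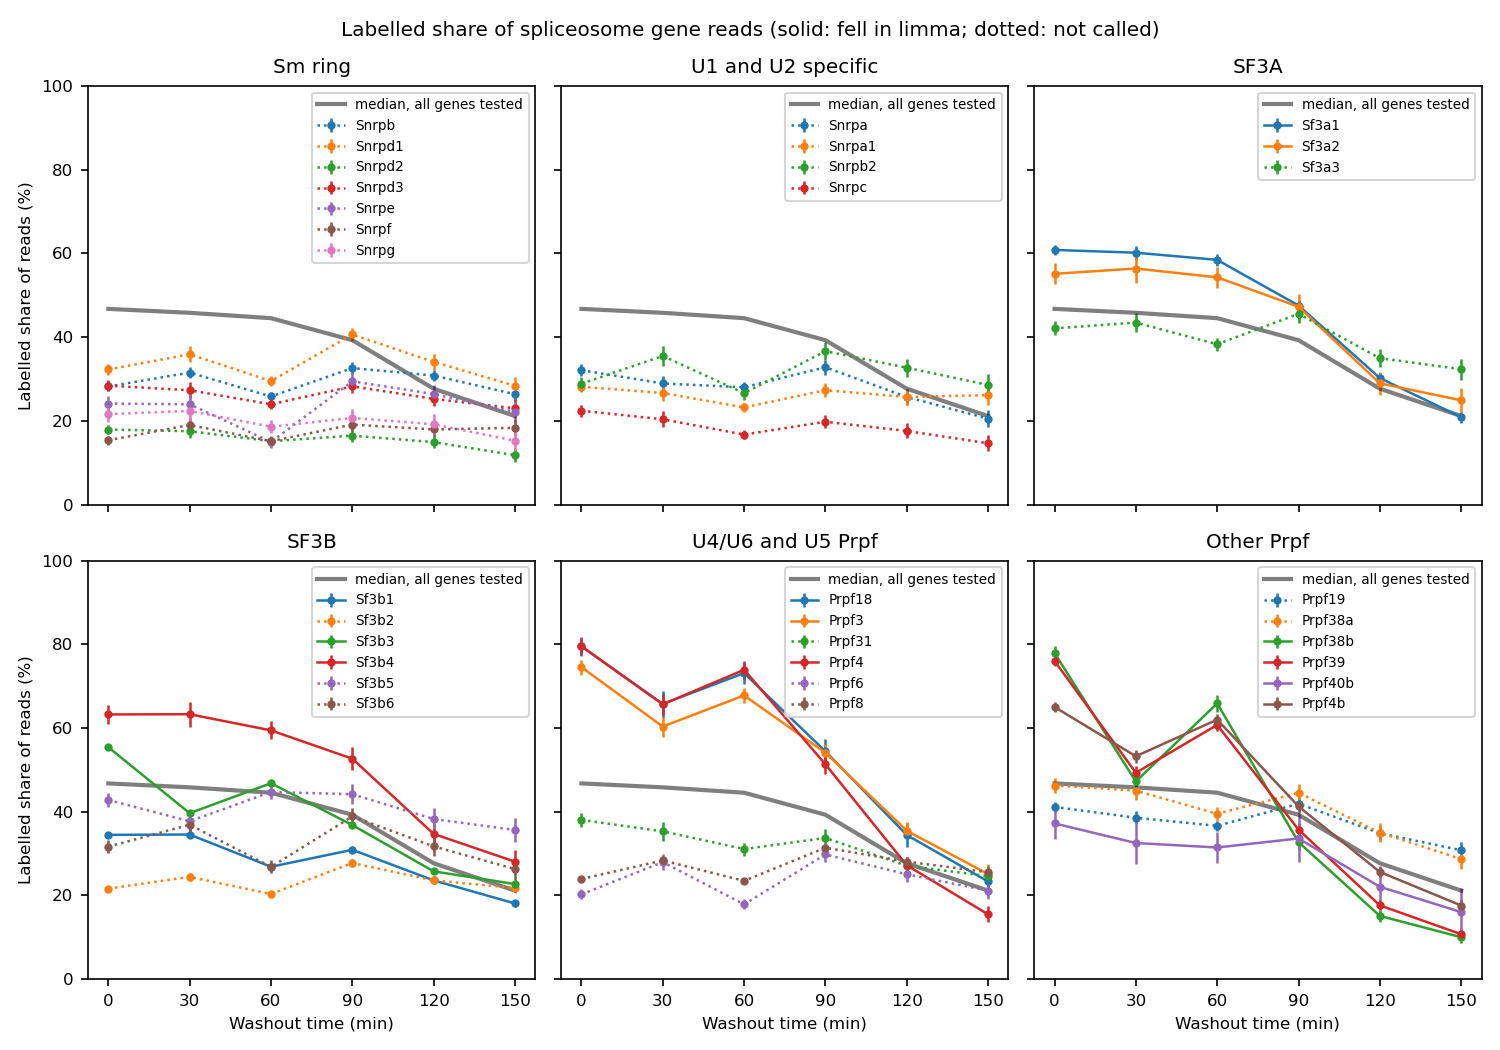
The labelled share of reads (%) is plotted on washout time (min) for 32 genes in panels by role, with bars for the 5% to 95% posterior range, solid lines for genes that fell and dotted lines for the others. The grey line is the median of all genes tested, and the 7 Sm ring genes stay between 11.8% and 40.6% in all 6 libraries.

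Prpf38b, a relative of the tri-snRNP-associated factor Prpf38a, lost label fastest. The gene (ENSMUSG00000027881) lies on chromosome 3 at 108902805 to 108911727, minus strand, and its first coding bases are those printed above. Its labelled share was 77.9, 47.2, 65.9, 32.7, 15.1 and 10.0% at 0, 30, 60, 90, 120 and 150 min. The 5% to 95% posterior range was 76.0 to 79.7% at 0 min and 8.66 to 11.4% at 150 min. The share was lower in each later library except the one at 60 min, which stood above that at 30 min. The slope was -0.82 ± 0.12 per h (SE, 6 libraries, limma adjusted p = 6.1e-05). If a single rate held from 0 min on, that puts the half-life at 50.6 min (1 SE range 44.3 to 58.9). The other half-lives from washout slopes were read likewise. Only 5.91% of all genes tested had a steeper slope.

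Prpf39, a U1-associated factor, followed closely. The gene (ENSMUSG00000035597) lies on chromosome 12 at 65036333 to 65063386, plus strand. Its share was 76.0, 49.3, 60.7, 35.7, 17.6 and 10.7% in time order. It had the same shape as Prpf38b, with a step up at 60 min. Its half-life came to 54.3 min (1 SE range 47.5 to 63.3; limma adjusted p = 6.3e-05). Its span overlaps 963 nt of Fkbp3 on the other strand, which had a mean of 4692 reads. Fkbp3 had a share of 19.5% at 0 min and 11.7% at 150 min. How the count treated strand was not stated, and the part of Fkbp3 reads in the result was not tested.

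Prpf4 and Prpf3 are partner proteins of the U4/U6 snRNP. The share of Prpf4 was 79.5, 65.6, 73.9, 51.3, 27.2 and 15.5% in time order, and its half-life came to 65.0 min (1 SE range 55.5 to 78.6; limma adjusted p = 0.000198). The share of Prpf3 was 74.5, 60.3, 67.8, 54.1, 35.4 and 25.1%, and its half-life came to 100.2 min (1 SE range 81.4 to 130.3; limma adjusted p = 0.00181). Both stood above 70% at 0 min, and by 150 min Prpf4 was below the median gene and Prpf3 above it. The median share of all genes tested was 46.8% at 0 min and 21.1% at 150 min.

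Prpf4b and Prpf18 complete the 5 steepest members. Prpf4b, a kinase that acts on spliceosome proteins, had shares of 65.0, 53.2, 62.0, 41.3, 25.6 and 17.6% and its half-life came to 79.6 min (1 SE range 66.8 to 98.5; limma adjusted p = 0.000448). Prpf18, a factor of the second catalytic step, had shares of 79.5, 65.7, 73.1, 54.4, 34.4 and 23.3% and its half-life came to 87.0 min (1 SE range 72.2 to 109; limma adjusted p = 0.000733). All 5 steepest members had a higher share at 60 than at 30 min. Of the 33 members 8 did, against 47.1% of all genes tested.

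The SF3A complex, which joins U2 at the branch site, was not uniform. Sf3a1 had shares of 60.8, 60.2, 58.5, 47.5, 30.2 and 20.9% and its half-life came to 95.5 min (limma adjusted p = 0.00145). Sf3a2 had shares of 55.1, 56.4, 54.3, 47.2, 29.0 and 24.9% and its half-life came to 119 min (limma adjusted p = 0.00556). For both, the first 3 libraries were close together and the decline came after 60 min. The median share of all genes tested had the same shape, at 46.8, 45.8, 44.5, 39.3, 27.7 and 21.1% in time order. Sf3a3, the third subunit, had shares of 42.1, 43.5, 38.3, 45.6, 35.0 and 32.3%, highest at 90 min, and its slope of -0.10 ± 0.09 per h did not pass (limma adjusted p = 0.355).

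Among SF3B genes, Sf3b3, Sf3b4 and Sf3b1 fell. Sf3b3, a large scaffold subunit, had shares of 55.4, 39.6, 46.8, 36.8, 25.7 and 22.7% from 8816 to 14223 reads per library and its half-life came to 121 min (limma adjusted p = 0.00497). Sf3b4, an RNA-binding subunit, had a similar half-life of 122 min (limma adjusted p = 0.00539) but another course. Its shares were 63.2, 63.3, 59.4, 52.7, 34.7 and 28.1%, without the drop at 30 min seen in Sf3b3. Sf3b1, the subunit that clasps the branch site, was the last member past the threshold. Its shares were 34.5, 34.5, 26.8, 30.9, 23.6 and 18.1%, and its half-life came to 172 min (limma adjusted p = 0.0334). Its call was lost without the 0, 30, 120 or 150 min library (limma adjusted p = 0.0793, 0.124, 0.102 and 0.298), without both the 30 and 60 min libraries (0.0769) and with no read minimum (0.0639).

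Sf3b2, Sf3b5 and Sf3b6 were not called. Sf3b2, which contacts RNA beside the branch site, had shares of 21.6, 24.4, 20.3, 27.7, 23.6 and 21.8%, with no trend detected at a slope of 0.01 ± 0.09 per h (limma adjusted p = 0.912). Sf3b5 went between 35.6% and 44.7%, and Sf3b6, the subunit that touches the branch adenosine, between 26.3% and 38.9%. Sf3b5 has a single annotated exon and 258 coding bases in a transcript of 3841 nt.

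Prpf8 and Prpf6 mark the other end of the Prpf genes. Prpf8, the protein at the heart of U5 and of the active spliceosome, lies on chromosome 11 at 75486816 to 75509449, plus strand (ENSMUSG00000020850), and was the most deeply read member with 19631 to 31228 reads per library. Its shares were 23.9, 28.4, 23.5, 31.4, 28.1 and 25.5%, with a 5% to 95% range of 23.5 to 24.3% at 0 min and 24.9 to 26.1% at 150 min. The slope was 0.03 ± 0.09 per h (limma adjusted p = 0.784). Differences between neighbouring libraries of Prpf8 were wider than its posterior ranges, which cover the uncertainty within 1 library only. Prpf6, which bridges U5 and U4/U6, had shares of 20.2, 28.0, 17.9, 29.8, 25.0 and 21.1% (slope 0.02 ± 0.10 per h; limma adjusted p = 0.87).

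Of the remaining Prpf genes, Prpf40b fell, while Prpf31, Prpf19 and Prpf38a were not called. Prpf40b, a U1-associated protein with WW domains, had the fewest reads and shares of 37.2, 32.5, 31.4, 33.6, 22.1 and 16.0% (half-life 137 min; limma adjusted p = 0.013). Its 5% to 95% range at 150 min was 10.97 to 21.7%. Prpf31, a U4/U6 protein mutated in human retinitis pigmentosa, had 38.0% at 0 min and 24.6% at 150 min (limma adjusted p = 0.122). Prpf19, a ubiquitin ligase, had 41.1% and 30.8% (limma adjusted p = 0.401), and Prpf38a had 46.2% and 28.7% (limma adjusted p = 0.115). Prpf38a and Prpf31 stood next below the threshold, at -0.17 per h each, beside Sf3b1 just past it at -0.24 per h.

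The Sm ring genes were weakly labelled from the start. At 0 min the share was 15.4% for Snrpf, 17.9% for Snrpd2, 21.6% for Snrpg, 24.1% for Snrpe, 28.2% for Snrpb, 28.4% for Snrpd3 and 32.3% for Snrpd1, and 7 of these 7 were below the all-gene median. The ring's median share was 24.1, 24.0, 18.6, 28.2, 25.2 and 22.1% in time order, lowest at 60 min and highest at 90 min. Snrpf (ENSMUSG00000020018; chromosome 10, 93583029 to 93589706, minus strand) had shares of 15.4, 19.0, 15.1, 19.1, 17.9 and 18.3%, and the most positive slope of the members, 0.05 ± 0.09 per h (limma adjusted p = 0.642). Snrpe had 24.1, 23.9, 14.9, 29.4, 26.4 and 22.1% (slope 0.03 ± 0.11 per h; limma adjusted p = 0.831), with its 60 min library lowest. Snrpd2 had the steepest slope of the ring, -0.14 ± 0.09 per h, with 17.9% at 0 min and 11.8% at 150 min (limma adjusted p = 0.187). Small Sm genes have processed copies elsewhere in the genome, and Snrpb has a near-identical relative in Snrpn, and how the count treated reads shared with such copies was not stated. Their values are uncertain to that extent, which was not tested.

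Genes of the proteins that single out U1 and U2 were not called either. Snrpa and Snrpc, of U1, had 32.1% and 22.4% at 0 min and 20.5% and 14.6% at 150 min. Snrpa1 and Snrpb2, of U2, had 28.1% and 28.9% at 0 min and 26.2% and 28.6% at 150 min. Their adjusted p by limma was 0.213, 0.207, 0.882 and 0.993. Snrpb2 had its highest share at 90 min, 36.6%, and its lowest at 60 min, 26.6%. Snrpa overlaps 491 nt of BC024978 on the other strand (mean 214 reads, 82.0% labelled at 0 min), and Snrpa1 overlaps Gm45213 on the same strand (mean 299.8 reads). Of the 33 members 7 overlap a gene with a mean of at least 100 reads.

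Members whose share was not called as falling were mostly the less labelled ones at 0 min. Of the 12 that fell, 10 were above the all-gene median share at 0 min; of the 21 that were not called, 0 were. At 150 min the position was turned: 5 of the 12 were above the all-gene median, against 15 of the 21. In the members that fell the median share was 64.1% (0 min) and 19.5% (150 min), against 28.2% and 24.6% in the others. Across the 33 members, the share at 0 min and the slope fitted without the 0 min library had a Spearman rho of -0.82. Genes are not independent replicates, and all of these values come from the same 6 libraries. The 12 and the 21 were split by a slope that uses the 0 and 150 min shares, so their contrast at those times partly restates the split. The same contrast and rho were not computed over all genes tested, so they are not shown to be particular to the members.

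**Figure D3:**
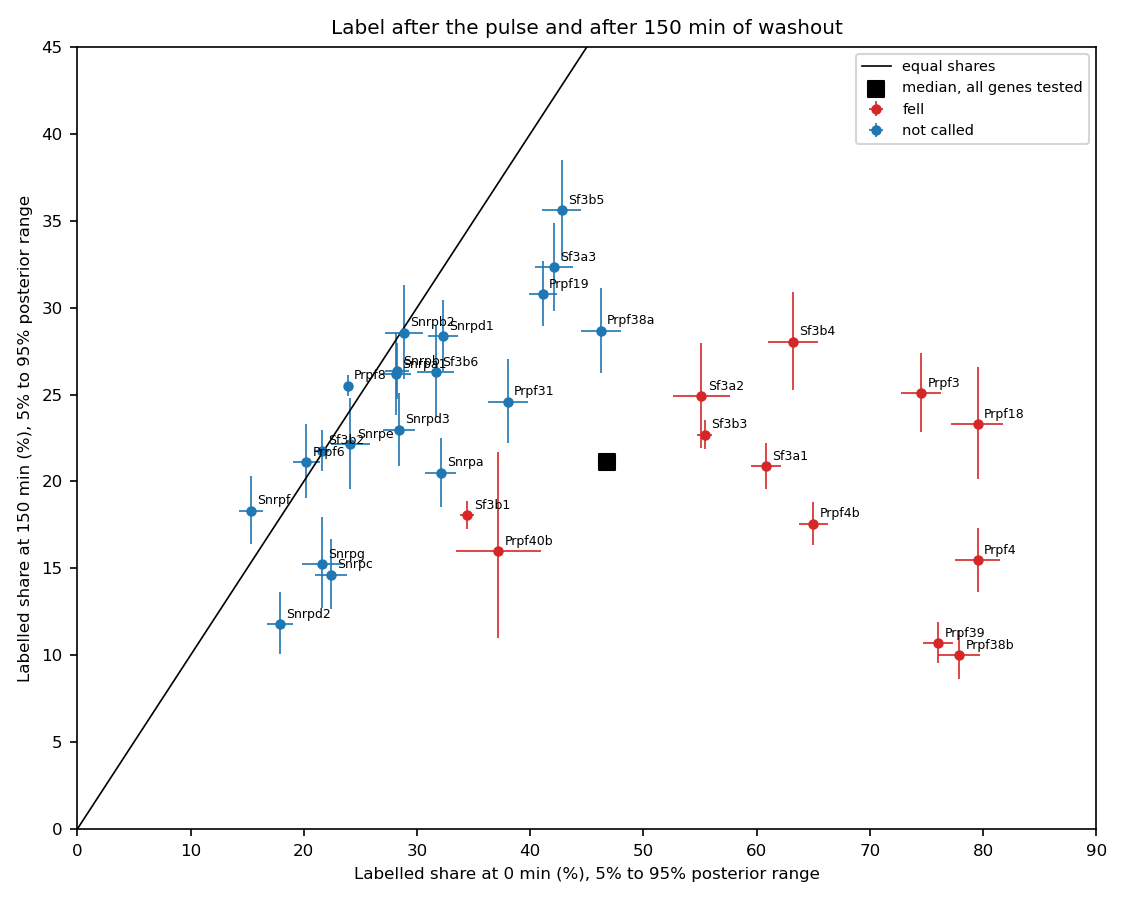
The labelled share at 0 min (%) is plotted against that at 150 min (%) for 32 genes, with bars for the 5% to 95% posterior range, red for genes that fell and blue for the others. Prpf38b and Prpf39 sit at the lower right (77.9% and 76.0% at 0 min, 10.0% and 10.7% at 150 min), and Prpf8 and Snrpf lie above the line of equal shares.

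Uptake of label was read from the 0 min library. If levels were steady, the share after 4 h of 4sU translates to a half-life of 105 min for Prpf4 and for Prpf18, 110 min for Prpf38b and 117 min for Prpf39. The same sum gave 394 min for Sf3b1, 609 min for Prpf8, 842 min for Snrpd2 and 998 min for Snrpf. These values use the 0 min library alone, take every new transcript as detected, and have no replicate check. In each of the 12 members whose share fell, the uptake value was longer than the washout value. The washout values were 50.6 min for Prpf38b, 54.3 min for Prpf39, 65.0 min for Prpf4, 87.0 min for Prpf18 and 172 min for Sf3b1. They take a single rate of loss from 0 min on. The cause of the gap was not tested.

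A second fit set each gene against the median gene of its own library, which removes what all genes of a library share. By this measure 5 members lost label faster than the median gene and 18 lost it more slowly, at a limma adjusted p under 0.05. Over all genes tested 25.2% were called faster and 36.9% slower. The faster members were the 5 steepest already given, and their slopes relative to the median gene were -0.50 (Prpf38b), -0.45 (Prpf39), -0.32 (Prpf4), -0.20 (Prpf4b) and -0.16 per h (Prpf18). Their limma adjusted p was 0.0068, 0.00679, 0.00909, 0.021 and 0.0371. Without the 150 min library 0 members were called in either direction by limma, as were 0 of all genes tested, while 3 members were faster and 8 slower at an unadjusted p under 0.05. Without the 0 min library 3 members were called faster and 14 slower, against 15.6% and 24.4% of all genes tested. Without the 120 min library 3 were called faster and 10 slower, against 19.3% and 23.3%.

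The slower members included 7 of 7 Sm ring genes and 3 of 4 U1- and U2-specific genes. Relative to the median gene of its library, the share of Snrpf was 0.329, 0.415, 0.34, 0.486, 0.648 and 0.867 in time order, a slope of 0.37 ± 0.07 per h (limma adjusted p = 0.00735). That of Prpf8 was 0.511, 0.619, 0.527, 0.799, 1.01 and 1.21 (0.35 ± 0.07 per h; limma adjusted p = 0.00711). That of Prpf38b was 1.67, 1.03, 1.48, 0.833, 0.545 and 0.474. So Prpf8 started at 0.511 of the median gene's share and ended above it, while Prpf38b ran the other way. Snrpc, at 0.18 ± 0.07 per h, was the U1 gene not called (limma adjusted p = 0.0612). The median of this relative slope over all genes tested was 0.07 per h, so zero is not the exact middle of the genes.

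Values of 4 pairs with like names or in the same complex are set side by side. The pairs were chosen after their values were seen, so the differences are a description with no test. The share of Prpf38b over that of Prpf38a was 1.68, 1.05, 1.67, 0.735, 0.431 and 0.349 in time order, and the slope of its natural log was -0.65 per h. Prpf38b thus stood above Prpf38a at 0 min and below it from 90 min on. Within SF3A, the same slope was -0.33 per h for Sf3a1 over Sf3a3, -0.25 per h for Sf3a2 over Sf3a3 and -0.09 per h for Sf3a1 over Sf3a2. Without the 150 min library the slopes were -0.62 per h for the Prpf38 pair and -0.26, -0.23 and -0.03 per h for the SF3A pairs in the same order.

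The raw T>C rate, the conversions per covered T before any model, fell in 16 of 33 members by limma, against 66.9% of all genes tested. All 12 members whose share fell were among the 16, joined by Prpf38a, Prpf31, Snrpd2 and Snrpa. By point estimate 33 of 33 members had a lower rate at 150 than at 0 min. The median rate of all genes tested also went down, from 4.70% at 0 min to 1.08% at 150 min. Prpf38b had 7.27, 2.94, 6.51, 2.17, 0.923 and 0.548% in time order, and Prpf39 had 7.22, 3.05, 6.09, 2.47, 1.01 and 0.67%. Prpf8 had 2.46, 2.04, 2.74, 2.32, 1.61 and 1.31%, and Snrpf had 1.60, 1.54, 1.83, 1.44, 1.02 and 0.996%. The rate at 150 min was therefore 0.0754 of that at 0 min for Prpf38b, 0.532 for Prpf8 and 0.622 for Snrpf, so Prpf8 and Snrpf also had fewer conversions at 150 than at 0 min by point estimate, with slopes that did not pass (limma adjusted p = 0.197 and 0.212).

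The 60 min library had a higher T>C rate than the 30 min library in 31 of 33 members. Over all genes together the rate was 2.69% at 30 min and 4.11% at 60 min. The median rate of all genes tested was 3.02% and 5.04%, so the step up was not particular to the members. The weakly labelled members moved the other way in the share: of the 21 not called, 1 had a higher share at 60 than at 30 min and 20 had a higher share at 90 than at 60 min. Over all genes tested, 45.3% had a higher share at 90 than at 60 min. The part of these library differences in the slopes was tested only by exchanging the times and by leaving libraries out. A falling T>C rate was called in 27 members without the 60 min library (80.6% of all genes tested), in 32 when the 30 and 60 min times changed places (87.9%) and in 27 without both (80.8%). It was called in 9 members without the 0 min library (49.3% of all genes tested), in 10 without the 120 min library (50.0%) and in 3 without the 150 min library (23.6%). The members' count went up and down with that of all genes.

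**Figure D4:**
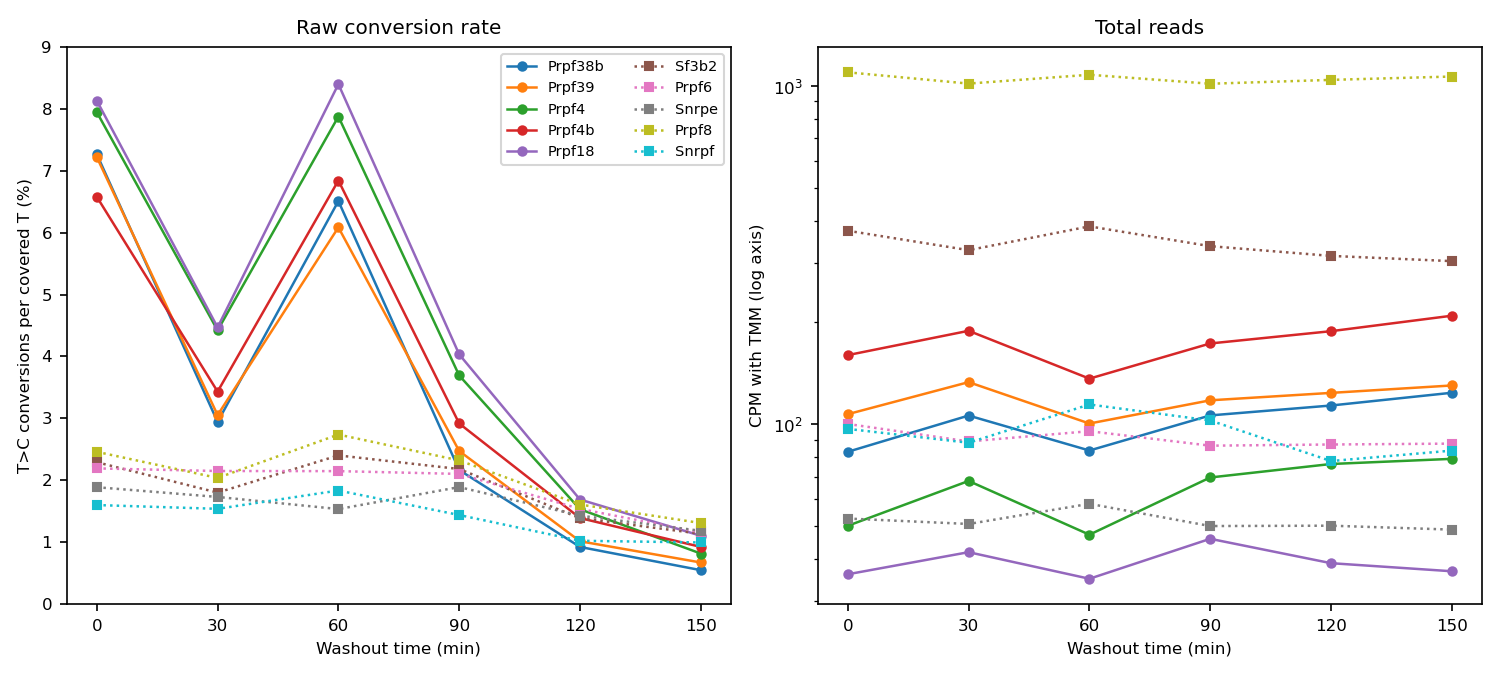
Left, T>C conversions per covered T (%) and right, CPM with TMM scaling (log axis) on washout time (min), for the 5 steepest (solid) and the 5 least steep (dotted) members. The steep genes start at 6.58% to 8.13% conversions and end at 0.55% to 1.10%, while the level of Prpf8 stays between 1015 and 1097 CPM.

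No trend in total reads passed the test for any member. By edgeR's quasi-likelihood test on time, 0 of 33 members passed at an adjusted p under 0.05, and 0.0% of 15743 genes did in either direction. At an unadjusted p under 0.05, 3 members rose and 1 fell, against 3416 of all genes (21.7%) in either direction. By DESeq2 0 members passed, while of 13351 genes 316 fell (2.37%) and 289 rose (2.16%). Reads scaled within a library do not tell fewer cells with a transcript from less RNA per cell. When the 60 min library was left out 3 members passed edgeR (9.19% of all genes tested), 5 did when the 30 and 60 min times changed places (18.3%), and 2 did with neither library (3.63%), shares of the members near those of all genes.

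Most members that lost label had more reads later, by point estimate. Of the 12 that fell, 9 had a positive slope in total reads, and of the 21 others, 1 had. Over all genes tested for total reads the median slope was -0.0039 log2 per h. The share of all genes with a positive slope was not counted. The 12 and the 21 were set apart by the share calls in these same libraries. Prpf4 had 50.1, 68.0, 47.2, 69.6, 76.3 and 79.0 CPM in time order (0.24 ± 0.08 log2 per h; edgeR adjusted p = 0.149). Sf3a1 had 152, 176, 137, 217, 206 and 225 CPM (edgeR adjusted p = 0.142), and Prpf38b had 82.9, 106, 83.6, 106, 114 and 124 CPM (edgeR adjusted p = 0.157). Prpf40b had 17.7, 16.5, 16.6, 11.3, 12.3 and 11.7 CPM, a slope of -0.27 ± 0.08 log2 per h (edgeR adjusted p = 0.114). In Prpf4, Prpf38b and Sf3a1 the lowest level was at 0 or 60 min, the libraries with the highest T>C rates. On labelled abundance, the share multiplied by CPM, 12 members fell, and they were the same 12 genes. Over all genes tested 47.2% fell. The rates differed between the measures. Slopes per h of ln share, then of ln labelled abundance, were -0.82 and -0.68 for Prpf38b and -0.64 and -0.47 for Prpf4. For Sf3a1 they were -0.44 and -0.27. Labelled abundance was the steeper for Prpf40b (-0.30 and -0.49), Sf3b1 (-0.24 and -0.28) and Sf3b3 (-0.34 and -0.37). The half-lives given are those of the share.

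Levels were compared per length. The members' mean level was 3.53 to 141 CPM per kb with a median of 30.5, against a median of 10.7 CPM per kb over the genes tested. Prpf8 (141 CPM per kb), Snrpd1 (126), Snrpf (109), Sf3b3 (106), Sf3b2 (105) and Snrpb (104) were the highest, and Prpf40b (3.53), Prpf18 (11.1) and Prpf4 (12.5) the lowest. The median was 27.2 CPM per kb in the members that fell and 41.7 in the others, and level and share at 0 min had a Spearman rho of -0.55 across the 33 members. The lengths are those of the table, 669 to 3036 nt for the Sm ring genes and 2889 to 7844 nt for the Prpf genes. The members that fell had a median length of 4190 nt and a median gene span of 23977 nt, against 2061 nt and 13819 nt in the others.

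Other spliceosome genes and genes of snRNP assembly and import, from 8 chosen lists, held both kinds of gene too. Of 83 other gene models tested, with U2af1l4 present as more than 1 model, 36 fell and 0 rose by limma. Relative to the median gene 15 were faster and 35 slower. Of all genes tested 52.3% fell, 25.2% were faster and 36.9% were slower. Their median slope was -0.19 per h and their median share at 0 min 44.0%. These lists were written with earlier results of the data known.

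Among the 7 genes with the prefix Snrnp, 2 fell, Snrnp48 (52.3 min) and Snrnp35 (104 min), both proteins of the minor spliceosome, which removes a rare class of introns. Snrnp25, also a minor spliceosome protein on that list, had 23.1% at 0 min and 18.8% at 150 min and was not called (limma adjusted p = 0.673). Snrnp200, the U5 helicase, had 17.5% at 0 min and 17.9% at 150 min (limma adjusted p = 0.9), and Snrnp70, the U1 protein that binds SR proteins, had 39.7% and 22.6% (limma adjusted p = 0.0549). Of 6 further minor spliceosome genes 5 fell, from Zrsr1 (41.5 min) to Zcrb1 (182 min), against 52.3% of all genes tested. Relative to the median gene 3 of the 6 were faster and 1 was slower. The slower gene was Zmat5, with 27.3% at 0 min and 31.7% at 150 min (limma adjusted p of the relative slope = 0.0116). Of 9 partners of U5 and the tri-snRNP 2 fell, Cd2bp2, a U5 assembly factor (61.5 min), and Sart3, which recycles U6 (117 min). Eftud2, the U5 GTPase that binds Prpf8, had 18.3% at 0 min and 18.5% at 150 min.

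Of 7 Sm-like genes of the U6 ring 3 fell, between Lsm7 (77.7 min) and Lsm8 (123 min). Of 17 genes of the Prp19 complex and its neighbours 6 fell, between Cwc22 (77.6 min) and Cwc27 (187 min). Of 8 helicases and second-step factors 5 fell, between Dhx8 (85.2 min) and Dhx38 (178 min). Of 12 gene models for recognition of the intron end and U2 recruitment 6 fell, between Smndc1 (114 min) and Sf1 (161 min). Of 17 snRNP assembly and import genes 7 fell, between Phax, an export adaptor of small nuclear RNA (64.0 min), and Wdr77 (113 min), a partner of the methylase of Sm proteins. The fall passed limma at an adjusted p under 0.05 for each gene given here with a half-life. Over all genes tested 52.3% fell, the share to set beside each list's count.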

How the data were processed

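Nuclear RNA of 6 cultures, 1 per washout time, was read by stranded total RNA sequencing with paired ends of 81 nt. Per the submitters' processing notes, STAR 2.5.2b and the build mm10 were used; which program made the per-gene table, with which annotation and strand setting, was not stated in what was used. Per the file headers, the deposited table holds read counts, T>C conversion counts and T coverage (both to 4 significant digits), and the labelled fraction of reads as a posterior mean, mode and 5% and 95% quantiles. Another 18 columns were not used.

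Computed here were slopes on time, which left 4 residual degrees of freedom per gene. In limma each gene's variance was also drawn toward a value shared by all genes tested. Its standard errors and p-values therefore rest on more than the gene's own scatter. limma 3.58.1 was fitted to ln fraction (gene filter: mean reads no lower than 100, fraction never 0), with and without centring on the library median, and to ln T>C rate. edgeR 4.0.16 (TMM, filterByExpr, quasi-likelihood) was fitted to counts, and DESeq2 1.42.0 was an alternative. P-values were Benjamini-Hochberg adjusted over all genes tested, with a threshold of 0.05. The scripts were tested on simulated data. Gene IDs were matched to GENCODE M21 (33 of 33 members). Members, lists and alternatives were chosen with earlier results of these data known. By the rule for naming genes, values in all libraries are given for the 5 steepest and 5 least steep members, those called in total reads or in the rarer direction of the centred fit, and the 2 with most reads; other members so given were added. From each list the steepest and least steep called gene is named, and further genes were added after their values were seen. Depth limits precision, and posterior ranges cover 1 library only. The values of 1 member are not reported here; counts, medians and adjusted p-values still include it, and the figures leave it out.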

Additional observations from a re-analysis of the deposited data

How the results depend on the processing

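No paired analysis was possible because there was a single library at every time. The number of members losing label was 5 to 12 over the 6 fits without 1 library and 11 or 12 under the other alternatives, and the genes called were always among the 12. The number losing label faster than the median gene was 0 to 6 over the fits without 1 library, and 3 with no read minimum; the number losing it more slowly was 0 to 21, and 11 with no read minimum. The fit with no read minimum tested 17412 genes. The number with a falling T>C rate was 3 to 27 without 1 library, 32 after the 30 and 60 min times changed places and 27 with neither library. The number with a slope in total reads was 0 to 3 without 1 library, 5 after that change and 2 with neither library; the cause was not tested.

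Among flat members the sign turned without a call. Over the fits without 1 library the slope was -0.0165 to 0.0601 per h for Sf3b2, -0.0444 to 0.0981 for Prpf6 and -0.00627 to 0.0847 for Prpf8, each lowest without the 0 min and highest without the 150 min library. Without both the 30 and 60 min libraries it was -0.0117 for Snrpe. On labelled abundance it was -0.0598 for Sf3b2, -0.0244 for Prpf6, -0.00128 for Snrpe and -0.0159 for Snrpf. The pair values without the 150 min library were added after seeing the data. Genes with few reads, such as Prpf40b, have the widest posterior ranges.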
